A study of Mus musculus with 12 samples.

Results

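The genes described here are 31 genes that carry fatty acids through mitochondrial and peroxisomal oxidation in mouse liver. They were taken by name from the 16346 genes of a liver RNA-seq table, with no threshold on any value but with earlier results of these data known, and all 31 were found there. The list holds the nuclear receptor gene *Ppara*, 7 genes of fatty acid activation and acyl transport, 4 mitochondrial acyl-CoA dehydrogenases, 5 genes of the later mitochondrial steps, 4 auxiliary enzymes for unsaturated acids, 3 electron transfer genes, 6 peroxisomal genes and the ketone body gene *Bdh1*. Of these, 30 had a mean normalized count of at least 10 and were tested. *Eci1*, a mitochondrial enoyl-CoA isomerase, was listed between 0 and 12.9 in all 12 libraries and was not tested. Liver is known to express it, and whether these low values are a failed estimate was not tested. It was listed at 0 in both control sucrose libraries and in 1 fasted MED13-LKO library.

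The study asked how loss of MED13, the subunit that joins the kinase module to the Mediator complex, alters the liver's response to dietary sugar. Livers came from 12 C57BL6J mice aged 12 weeks and kept on the same chow, with 2 mice in each of 6 groups. The controls carried floxed alleles (Med13fl/fl), and the MED13-LKO mice were made with *Alb*-Cre, a recombinase driven by the albumin promoter that acts in hepatocytes and leaves the other liver cells with the gene. In each genotype, 1 group was fasted for 16 h overnight, and the others were refed for 4 h with chow and drinking water containing 30% sucrose or 30% fructose. The fasted mice were killed earlier in the day than the refed mice, so feeding and time of day cannot be told apart. The drinking sugar was always given with chow, and refeeding with plain water was not analysed here. Nothing in the labels says whether the mice of a group shared a litter or cage, and the sex of these mice is not given there.

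Fatty acids are activated to acyl-CoA, exchanged onto carnitine to cross the inner mitochondrial membrane, and shortened there by repeated rounds of dehydrogenation, hydration, a second dehydrogenation and thiolysis. Electrons from the first step pass through the electron transfer flavoprotein to the respiratory chain. Peroxisomes shorten very long, branched and dicarboxylic acids by a parallel set of enzymes and pass the products on to mitochondria. In the fasted liver the acetyl-CoA feeds ketone body synthesis, and the nuclear receptor PPARα, bound to DNA with RXR at direct repeats spaced by 1 base (DR1 elements), is a known activator of many of these genes. After a carbohydrate meal, malonyl-CoA inhibits CPT1 and fatty acid entry into mitochondria falls.

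The values are normalized counts, that is estimated read counts per gene divided by the authors' normalization factors. They summed to between 21062211 and 24152885 in the control libraries and between 17309215 and 18738563 in those labelled MED13-LKO (LKO-labelled below). The 31 genes made up 0.657% to 0.810% of the sum in control libraries and 0.865% to 1.07% in LKO-labelled libraries. Their summed normalized counts overlapped, at 145525 to 177600 in controls and 149676 to 196345 in LKO-labelled libraries, so the gap in percent also reflects the smaller library sums. *Med13* RNA lay between 646.4 and 1055 in LKO-labelled libraries, no lower than the 577.6 to 796.3 of controls. A gene-level value includes exons outside the deleted part, so it does not check the deletion, and the groups are therefore called by their labels. *Nnt*, which is partly deleted in C57BL6J mice, lay between 528.6 and 1004 in controls and between 2617 and 3687 in LKO-labelled libraries, so strain background and genotype cannot be told apart. Of 6 hepatocyte markers listed, the 5 found were detected in every library and were all lower with the MED13-LKO label (limma, adjusted p-value under 0.05). Their summed level was 1732882 to 2070278 against 2291974 to 2959557 in controls. Of 6 sinusoidal endothelial markers, 4 were higher with that label (summed level 4975 to 6890 against 4262 to 5117), as were 2 of 6 Kupffer cell markers (4031 to 5360.0 against 2972 to 4147). Lower with it were 2 of 6 stellate cell markers, 1 of 4 cholangiocyte markers and 2 of the 3 blood markers tested, the other being higher. The adipocyte markers *Adipoq* and *Cfd* summed to at most 99.7 and were at 0 in some libraries. In whole liver, fewer cells of a type and less RNA per cell cannot be told apart, and the part of these markers in the results below was not tested.

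Promoters are shown for 3 of the genes. *Cpt1a* and *Pex11a* were called in the feeding comparison below, and *Slc25a20* holds letters close to a DR1 element. Each window runs from 250 bases before the start site to 50 after it, 5′ to 3′ on the gene's strand, and was read from RefSeq on GRCm38.p6, the assembly named mm10 in the submitters' notes. The capitals in the *Slc25a20* window mark the match, and the other windows held none.
Cpt1a, chr19:3323051-3323350, plus strand: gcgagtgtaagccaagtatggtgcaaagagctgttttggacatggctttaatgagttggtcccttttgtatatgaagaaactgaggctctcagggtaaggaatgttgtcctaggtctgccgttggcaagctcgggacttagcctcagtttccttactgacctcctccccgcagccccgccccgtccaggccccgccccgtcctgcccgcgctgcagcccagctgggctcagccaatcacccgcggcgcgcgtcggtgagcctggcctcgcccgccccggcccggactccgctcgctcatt
Pex11a, chr7:79743082-79743381, minus strand: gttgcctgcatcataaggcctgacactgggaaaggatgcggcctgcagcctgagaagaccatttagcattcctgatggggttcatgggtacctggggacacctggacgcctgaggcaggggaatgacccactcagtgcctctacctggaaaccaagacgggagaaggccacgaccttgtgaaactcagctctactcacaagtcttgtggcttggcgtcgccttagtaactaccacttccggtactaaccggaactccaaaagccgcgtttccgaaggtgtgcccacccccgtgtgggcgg
Slc25a20, chr9:108661886-108662185, plus strand: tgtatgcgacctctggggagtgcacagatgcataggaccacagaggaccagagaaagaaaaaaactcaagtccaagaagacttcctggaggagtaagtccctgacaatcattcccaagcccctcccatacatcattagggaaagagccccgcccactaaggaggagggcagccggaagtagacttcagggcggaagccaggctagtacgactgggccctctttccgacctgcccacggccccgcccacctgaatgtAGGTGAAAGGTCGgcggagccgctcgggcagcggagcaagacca

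RefSeq windows were found for 27 of the 31 genes, 30 windows in all. They were searched on both strands for 2 copies of AGGTCA separated by any 1 base, the DR1 letters, with up to 2 mismatches in the 12 fixed letters, and 4 of the 30 windows (13.3%) held a match. Of all 32851 windows of the same length, 1268 (3.86%) did. The matched letters are given here, read along the motif, because they are the part of the promoters nearest to the element that PPARα and RXR bind. The match began 83 bases before the start site in *Echs1*, 77 before it in *Etfa* (where it lay on the opposite strand), and 6 and 9 bases after it in *Slc25a20* and in 1 of the *Acox2* windows.
Echs1: AGGTCACGGGTCC
Etfa: AGGGCAAAGGTAA
Slc25a20: AGGTGAAAGGTCG
Acox2: AGGACAGAGGTGA

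A match describes letters and not a binding site. Of these 4 genes, *Slc25a20* was called in the genotype comparison below, *Acox2* in 1 feeding comparison, and *Echs1* and *Etfa* in neither. *Hadha* and *Hadhb*, which encode the subunits of the trifunctional protein, lie head to head on chromosome 5, with the start sites of these RefSeq windows 273 bases apart. GENCODE places the facing gene ends closer, at 30155162 and 30155248. Their log2 differences between genotypes, averaged over the diets, were 0.24 and 0.17. Only that of *Hadha* was called (adjusted p-values 0.0324 and 0.138 in limma).

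Per kilobase of principal transcript, the levels spanned a wide range. *Acaa2*, the mitochondrial thiolase, was highest with a mean of 10541 normalized counts per kilobase over the 12 libraries, followed by *Acaa1b*, a peroxisomal thiolase, with 6720 and *Etfa*, a subunit of the electron transfer flavoprotein, with 5489. *Ppara* stood at 589.6. The lowest of the tested genes were *Crat*, carnitine acetyltransferase, with 204.0 and *Acot2*, a mitochondrial acyl-CoA thioesterase, with 57.1. The levels of *Acaa1b* and *Acot2* carry a further uncertainty, because 50.1% and 37.8% of the 31-base words of their transcripts also occur in other genes. The same share was 49.9% for *Etfb*, 33.2% for *Acadvl*, 23.7% for *Hadhb*, 23.4% for *Acaa1a* and 17.3% for *Eci2*, and how the authors' counting split such reads was not tested.

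**Figure D1:**
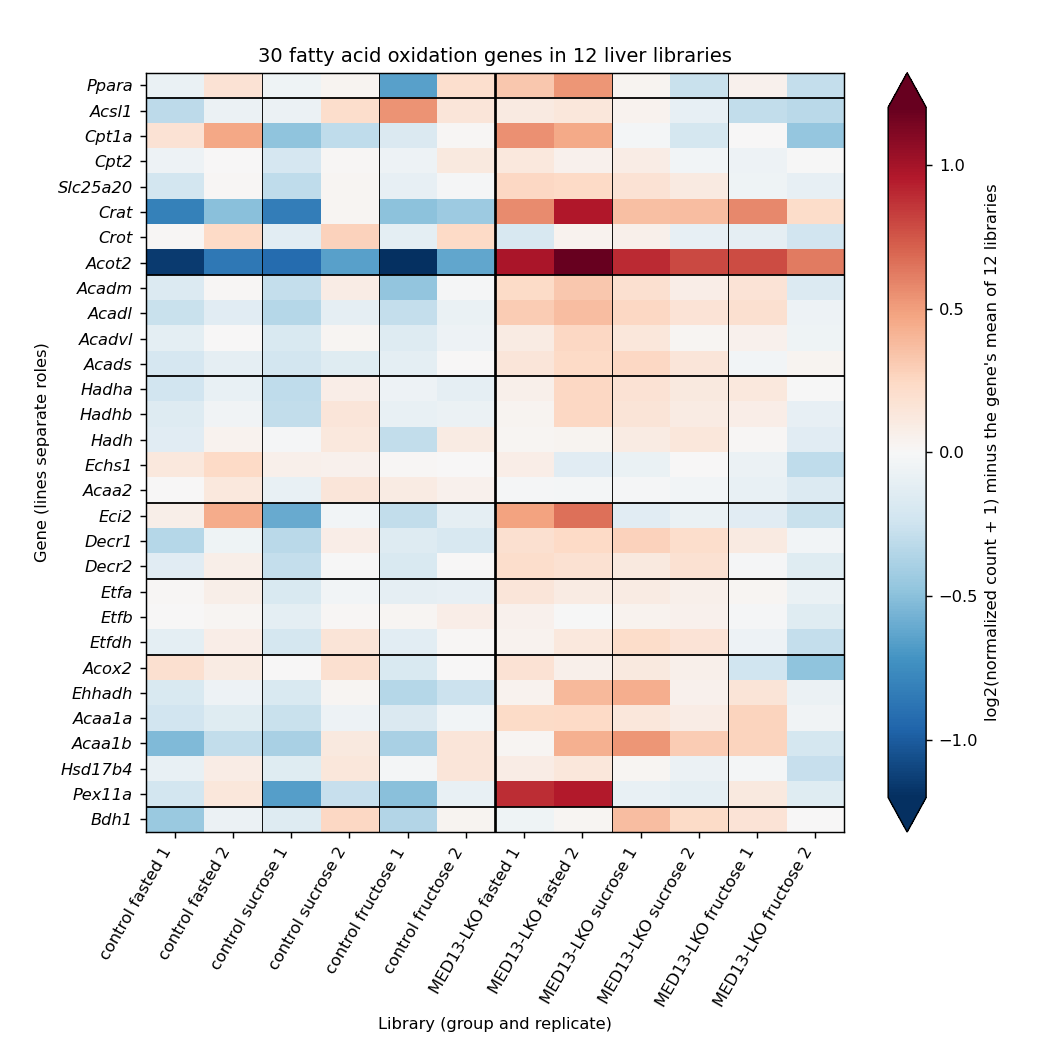
Each row is 1 of the 30 tested genes and each column 1 of 12 liver libraries, and the colour is log2(normalized count + 1) minus that gene's mean over the 12 libraries, with horizontal lines between roles. *Acot2* and *Crat* were above their means in the 6 LKO-labelled libraries and, apart from 1 control sucrose library of *Crat*, below them in controls. *Cpt1a* and *Eci2* were above their means in the fasted libraries of both genotypes, and *Pex11a* was above its mean in the fasted LKO-labelled libraries.

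The first comparison set refed against fasted livers, averaged over the genotypes. Of the 30 genes, 3 were lower after refeeding and 0 were higher, a share of 10% called, while 21.8% of all 12366 genes tested were called, 11% lower and 10.7% higher. The 3 genes were *Cpt1a*, *Eci2* and *Pex11a*, 1.53, 1.54 and 1.58 times lower. A gene was called at a Benjamini-Hochberg adjusted p-value under 0.05 over all genes tested in limma, on the scale log2(normalized count + 1) that all log2 differences below use. The median log2 difference of the 30 genes was -0.08, against -0.01 over all genes, and 25 of the 30 were negative. That median lay between -0.11 and -0.03 with each library left out in turn, nearest 0 without control sucrose replicate 1 or control fasted replicate 2. In 6 of the 30 the unadjusted p-value was under 0.05, as it was in 35.3% of all genes. Scaled to the same sum per library, the median of all genes went from -0.01 to 0.10 and the same 3 genes were called, while the share of all calls that were higher went from 49.3% to 76.8%. Of the sinusoidal endothelial markers, 3 of 6 were lower after refeeding (summed level 4262 to 5494 against 5061 to 6890 fasted). So were 1 of the 5 hepatocyte markers and 2 of the 3 blood markers tested, while of 6 stellate cell markers 1 was lower and 1 higher. The part of these markers in the calls was not tested.

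*Cpt1a* (chr19:3322334-3385733) encodes the liver form of carnitine palmitoyltransferase of the outer mitochondrial membrane, the controlled step of fatty acid entry. Its normalized counts were 6754 and 8217 in fasted controls, 4269.6 and 4852 on sucrose, and 5283 and 6049 on fructose. The LKO-labelled libraries held 8720 and 8168 fasted, 5879 and 5176 on sucrose, and 5988 and 4338 on fructose. Every refed library lay below every fasted library. The difference was -0.61 ± 0.10 (log2, SE; adjusted p-value 0.00185 in limma, n = 4 fasted and 8 refed).

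*Eci2* (chr13:34977748-35027096) encodes an enoyl-CoA isomerase that moves double bonds of unsaturated acids into the position that oxidation needs. Its values were 4977 and 6477 in fasted controls, 3119 and 4638 on sucrose, and 3878 and 4422 on fructose. LKO-labelled mice had 6619 and 7489.6 fasted, 4335 and 4484 on sucrose, and 4330.1 and 3960.1 on fructose. Here too no refed library reached a fasted one, the highest refed value being 4638 and the lowest fasted one 4977. The log2 difference was -0.62 ± 0.11 (SE, adjusted p-value 0.00342 in limma). *Cpt1a* and *Eci2* were thus 2 of the 30 genes whose refed libraries all lay below the fasted ones, and 4.79% of all genes tested did so.

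*Pex11a* (chr7:79735957-79743131) encodes a peroxisomal membrane protein that promotes the elongation and division of peroxisomes. Its values were 1469 and 1886 in fasted controls, 1087 and 1415 on sucrose, and 1209 and 1614 on fructose. With the MED13-LKO label it had 3178 and 3324 fasted, 1615 and 1579.5 on sucrose, and 1855 and 1554 on fructose. The fasted LKO-labelled libraries stood apart from the other 10, and among controls the fasted and fructose values overlapped. The log2 difference over both genotypes was -0.66 ± 0.11 (SE, adjusted p-value 0.00221 in limma).

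The regulator and the remaining steps did not pass the test. *Ppara* (chr15:85734983-85802819) had values of 1859.6 and 2223 in fasted controls, 1898 and 2016 on sucrose, and 1254.5 and 2269 on fructose. The LKO-labelled values were 2464 and 2847 fasted, 2019 and 1636 on sucrose, and 2045 and 1615 on fructose. The refed and fasted libraries overlapped through the controls, and the log2 difference was -0.35 ± 0.15 (SE, adjusted p-value 0.115 in limma). Without control fructose replicate 2, the higher of that pair, *Ppara* (-0.46, adjusted p-value 0.00734) and *Acox2* (-0.22, adjusted p-value 0.0352) were called as well, which made 5 genes called in place of 3.

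Of the mitochondrial dehydrogenases, which take the first step of each round for long, medium or short acyl chains, 0 of 4 were called, with log2 differences from -0.15 in *Acadm* to -0.03 in *Acads*. The 5 genes of the later mitochondrial steps ran from -0.12 (*Echs1*, enoyl-CoA hydratase) to 0.01 (*Hadh*, hydroxyacyl-CoA dehydrogenase), with 0 called. The 3 electron transfer genes ran from -0.12 (*Etfa*) to -0.03 (*Etfb*), with 0 called. In the peroxisome, *Acox2*, which oxidizes branched acids and bile acid precursors, had -0.20 (adjusted p-value 0.0597 in limma) and *Acaa1b* 0.14. *Bdh1* (chr16:31422280-31458901), which interconverts the ketone bodies acetoacetate and hydroxybutyrate, was the member with the largest positive value, 0.20 ± 0.10 (SE, adjusted p-value 0.196). Its values were 2505 and 3257 in fasted controls, 3058 and 4047.5 on sucrose, and 2681 and 3496 on fructose. LKO-labelled livers gave 3293 and 3472 fasted, 4424 and 3999 on sucrose, and 3826 and 3425 on fructose. The LKO-labelled sucrose libraries were above their fasted counterparts, whereas the control groups overlapped.

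**Figure D2:**
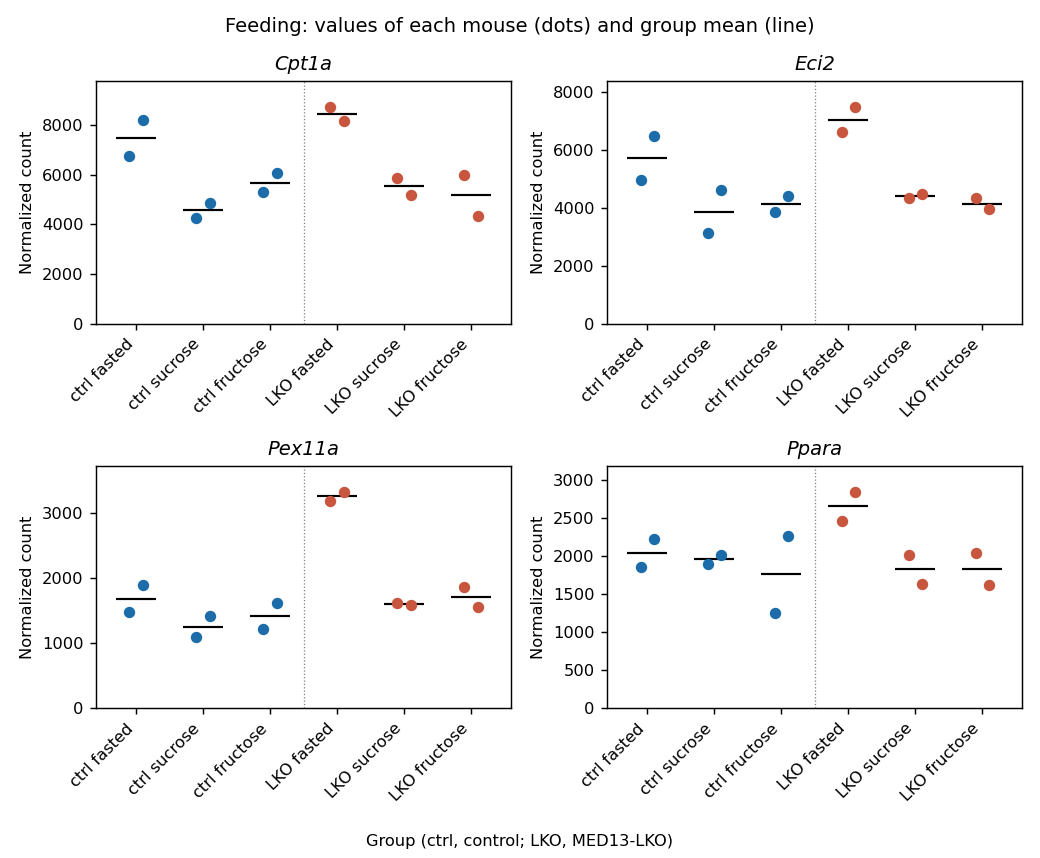
The 4 panels plot normalized counts (vertical axis, from 0) of *Cpt1a*, *Eci2*, *Pex11a* and *Ppara* by group, with a dot for each mouse, a line at the group mean, controls on the left and LKO-labelled libraries on the right. The fasted dots of *Cpt1a* and *Eci2* lie above all refed dots, while the *Ppara* dots of the refed and fasted groups overlap.

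Within each genotype and sugar, with 2 mice on each side, between 0 and 4 of the 30 genes were called. In controls, sucrose against fasted called 1 of the 30 genes, *Cpt1a* (-0.71, adjusted p-value 0.0220), against 8.57% of all genes in either direction and 3.72% lower. Fructose called 0 in limma against 5.6%, and 3 genes (*Acsl1*, *Cpt1a* and *Eci2*) had an unadjusted p-value under 0.05, against 22.9% of all genes. Among LKO-labelled libraries, sucrose called 2, *Cpt1a* (-0.61, adjusted p-value 0.0491) and *Pex11a* (-1.02, adjusted p-value 0.00920), against 5.71% of all genes and 3.48% lower. The *Cpt1a* call there was lost in 8 of the 12 fits that left out 1 library, those without a fasted or a sucrose mouse of either genotype, and also with a pseudocount of 0.1, no filter, either other scaling or the replicate block (adjusted p-values 0.0153 to 0.268 over all alternatives). The *Pex11a* call was lost without LKO fasted replicate 2 or either LKO sucrose replicate. Fructose called 4 there, all lower, against 6.53% of all genes and 3.58% lower. They were *Pex11a* (-0.94), *Eci2* (-0.77), *Cpt1a* (-0.73) and *Acox2* (-0.48). In that comparison 29 of the 30 genes were negative and their median was -0.20 (-0.32 without LKO fructose replicate 1 and -0.13 without replicate 2), against -0.01 over all genes. Fitted on these 2 groups alone, *Cpt1a* and *Acox2* were not called (adjusted p-values 0.0661 and 0.0747 in limma), and *Acox2* was not called with equal sums per library (0.0822). The 4 calls were all lost without any 1 of LKO fasted replicate 1, LKO fasted replicate 2 or LKO fructose replicate 2. That of *Eci2* was also lost without LKO fructose replicate 1 or either LKO sucrose replicate. The *Cpt1a* call in controls was lost without control fasted replicate 2 or either control sucrose replicate.

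Fructose was also set against sucrose directly, averaged over the genotypes. In limma, 0 of the 30 genes were called, against 0.0404% of all genes, and 1, *Acox2*, had an unadjusted p-value under 0.05 (9.48% of all genes did), with a log2 difference of -0.32 ± 0.08 (SE, adjusted p-value 0.277). The log2 differences of the 30 genes ran from -0.32 to 0.13, and 25 were negative. For *Cpt1a* the difference was 0.10 (95% interval -0.15 to 0.35).

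The second comparison set LKO-labelled libraries against controls, averaged over the 3 diets. Of the 30 genes, 11 were higher and 0 lower, a share of 36.7%. Of all genes tested, 25.3% were called, 12.1% higher and 13.2% lower. The 30 genes had a median log2 difference of 0.17, against 0.01 over all genes, and 17 of them had an unadjusted p-value under 0.05, as did 37% of all genes. The genes called were *Acot2* (1.91), *Crat* (1.02), *Pex11a* (0.54), *Acaa1b* (0.44), *Acadl* (0.41), *Ehhadh* (0.33), *Decr1* (0.33), *Acaa1a* (0.31), *Acads* (0.26), *Hadha* (0.24) and *Slc25a20* (0.20).

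The size of this shift depends on the scaling of the libraries. With every library scaled to the same sum in place of the authors' normalization, 28 of the 30 genes were called, all higher, but so were 60.8% of all genes, 94.6% of them higher against 47.7% on the deposited scale. That scaling moved the median of all genes from 0.01 to 0.32, and the median of the 30 genes stayed 0.17 above it in both cases. The genes with the smallest differences above are therefore read relative to that median. The calls of *Acot2*, *Crat*, *Pex11a*, *Acadl*, *Decr1*, *Acaa1a* and *Acads* remained whichever single library was left out. Those of *Slc25a20*, *Acaa1b*, *Hadha* and *Ehhadh* were lost in 9, 8, 7 and 2 of the 12 such fits. The count fell to 7 without control fasted replicate 1 and rose to 17 without control sucrose replicate 2.

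*Acot2* (chr12:83987861-83993873) splits acyl-CoA into free fatty acid and CoA inside mitochondria. It had normalized counts of 44.2 and 54.2 in fasted controls, 52.0 and 62.9 on sucrose, and 34.1 and 64.1 on fructose. Its LKO-labelled values were 197.3 and 312.9 fasted, 185.3 and 172.4 on sucrose, and 171.4 and 153.5 on fructose. All 6 of these were above every control value, and the difference was 3.75-fold (log2 1.91 ± 0.18, SE; adjusted p-value 5.7e-05 in limma, n = 6 and 6). Because 37.8% of its 31-base words also occur in other genes, reads of related genes may enter this difference, which was not tested. It was called within each diet, at 2.32 fasted, 1.63 on sucrose and 1.77 on fructose. The sucrose call was lost without any 1 of the sucrose mice, and the fructose call without LKO fructose replicate 1.

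*Crat* (chr2:30400471-30415813) transfers acetyl groups between CoA and carnitine. Controls had 454.9 and 562.6 fasted, 447.0 and 810.0 on sucrose, and 566.7 and 588.4 on fructose. LKO-labelled mice had 1181 and 1554 fasted, 1028 and 1028.5 on sucrose, and 1193 and 927.6 on fructose. The groups did not overlap, and the difference was 2.03-fold (log2 1.02 ± 0.14, SE; adjusted p-value 0.000783 in limma). Together with *Acot2* and *Acadl* it was 1 of 3 of the 30 genes whose LKO-labelled libraries all lay above the controls, and 3.92% of all genes did so.

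The mitochondrial dehydrogenases differed in the same direction, with 2 of 4 called, against 25.3% of all genes called and 12.1% higher. *Acadl* (chr1:66830839-66863277), the long-chain acyl-CoA dehydrogenase, had 3612.5 and 3952 in fasted controls, 3441 and 4049 on sucrose, and 3557 and 4117 on fructose. The LKO-labelled libraries gave 5378 and 5609 fasted, 5161 and 4865 on sucrose, and 4981 and 4180.5 on fructose. The last of these was close to the highest control and the others stood clear of it, and the log2 difference was 0.41 ± 0.07 (SE, adjusted p-value 0.00181 in limma). *Acads*, which acts on short chains, ran from 1970.1 to 2301 in controls and from 2240.2 to 2729 in LKO-labelled libraries (0.26 ± 0.05, adjusted p-value 0.00280 in limma). *Acadm* and *Acadvl*, for medium and very long chains, had 0.28 and 0.17 and did not pass, with adjusted p-values of 0.0673 and 0.0528.

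Of the 6 genes listed under the peroxisomal role 4 were called, all higher, against 25.3% of all genes called and 12.1% higher. The peroxisomal enzymes *Crot* and *Decr2*, listed under other roles, were not called. *Pex11a*, whose values in every library are given above, differed by 0.54 ± 0.10 (log2, SE; adjusted p-value 0.00383 in limma), with the largest gap in the fasted state (0.96, adjusted p-value 0.00881). *Ehhadh* (chr16:21761287-21787807), the bifunctional enzyme that takes the middle steps of the classical peroxisomal path, had 5583 and 6044 in fasted controls, 5573 and 6427 on sucrose, and 4978 and 5280.2 on fructose. With the MED13-LKO label the values were 6517 and 8268 fasted, 8534 and 6567 on sucrose, and 7027 and 6014 on fructose. Only the last of these fell inside the control range, and the log2 difference was 0.33 ± 0.09 (SE, adjusted p-value 0.0184 in limma).

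*Acaa1a* (chr9:119339676-119350299) and *Acaa1b* (chr9:119148023-119157093) both encode peroxisomal thiolases, which take the last step. *Acaa1a* had 3163.5 and 3350.5 in fasted controls, 3075 and 3553 on sucrose, and 3289.5 and 3618.5 on fructose. Its LKO-labelled libraries held 4359.8 and 4372 fasted, 4080.4 and 3958 on sucrose, and 4459 and 3614 on fructose. Fructose replicate 2 of the latter overlapped the controls, and the other 5 did not (log2 difference 0.31 ± 0.06, SE; adjusted p-value 0.00598 in limma).

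*Acaa1b*, the more abundant of the pair, varied more. Its control values were 7667 and 9009 fasted, 8431 and 11980.2 on sucrose, and 8441 and 12253 on fructose. Those of LKO-labelled mice were 11245 and 14878 fasted, 15904 and 13603 on sucrose, and 13270.3 and 9512 on fructose. The groups overlapped, since 2 of the 6 control mice were above the lowest values of the other genotype, and the log2 difference was 0.44 ± 0.14 (SE, adjusted p-value 0.0387 in limma). The other peroxisomal genes, *Hsd17b4* for the D-bifunctional protein and *Acox2*, had differences of -0.04 and -0.11.

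The remaining roles held fewer calls. Of the activation and transport genes, *Slc25a20*, the carnitine-acylcarnitine translocase, was called besides *Acot2* and *Crat*, while *Cpt1a* (0.10), *Cpt2* of the inner membrane (0.06), *Acsl1* (-0.14) and the peroxisomal carnitine octanoyltransferase *Crot* (-0.18) were not. *Hadha* was called among the 5 genes of the later mitochondrial steps, and *Echs1* at -0.17 had an adjusted p-value of 0.0503 in limma. *Decr1*, the mitochondrial dienoyl-CoA reductase, was called at 0.33, and its peroxisomal counterpart *Decr2* had 0.18 (adjusted p-value 0.0706). The electron transfer genes lay between -0.01 and 0.11 with 0 of 3 called, *Bdh1* had 0.25 (adjusted p-value 0.0947), and *Ppara* itself had 0.13 ± 0.14 (SE, adjusted p-value 0.544 in limma). With each library scaled to the same sum, the 7 negative genes, *Acaa2*, *Acox2*, *Acsl1*, *Crot*, *Echs1*, *Etfb* and *Hsd17b4*, all had positive differences, of which those of *Acsl1* (0.17) and *Crot* (0.14) were not called.

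**Figure D3:**
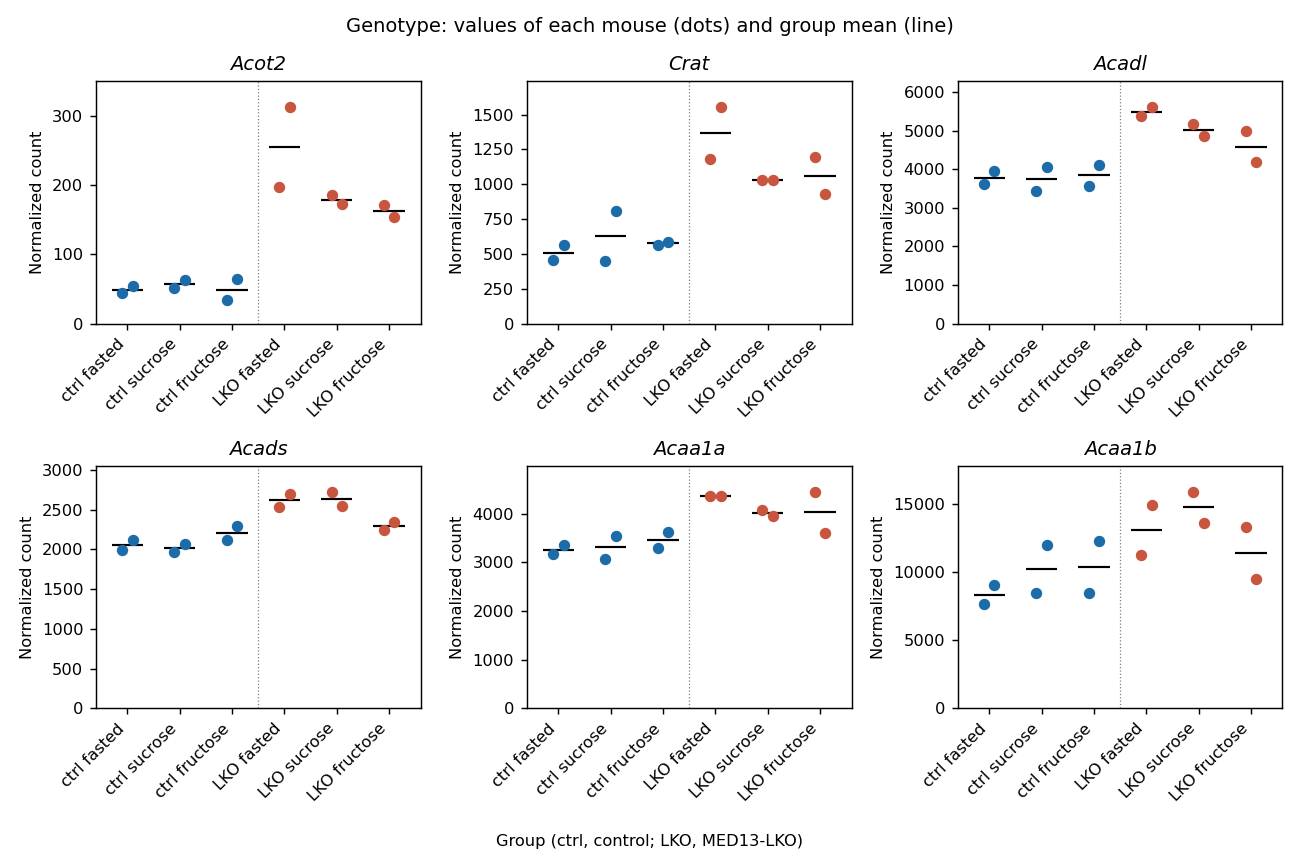
Normalized counts (vertical axis, from 0) of *Acot2*, *Crat*, *Acadl*, *Acads*, *Acaa1a* and *Acaa1b* are plotted by group, with a dot for each mouse, a line at the group mean, controls on the left and LKO-labelled libraries on the right. The 2 sets do not overlap for *Acot2*, *Crat* and *Acadl*, and they overlap for *Acads*, *Acaa1a* and *Acaa1b*.

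By diet, the fasted livers held most calls. There, 6 of the 30 genes were called, all higher in LKO-labelled libraries (*Acot2* 2.32, *Crat* 1.42, *Pex11a* 0.96, *Acadl* 0.54, *Acaa1a* 0.42 and *Acads* 0.34), against 8.98% of all genes in either direction and 4.12% higher. The median of the 30 genes was 0.28, against 0.01 over all genes, and it was 0.18 without control fasted replicate 1. With sucrose, 2 were called, *Acot2* (1.63) and *Acads* (0.38), against 6.03% of all genes and 2.7% higher. The median was 0.22, but 0.06 without control sucrose replicate 1 and 0.41 without replicate 2. With fructose, *Acot2* (1.77) was higher and *Acsl1* (-0.65) lower, against 7.69% of all genes, 3.74% higher and 3.95% lower. The median of 0.06 turned to -0.08 without control fructose replicate 1 and to -0.04 without LKO fructose replicate 1, and it was 0.11 and 0.12 without the other mouse of each group. Whether the genotype difference itself varied with diet is tested by the comparison of feeding responses below. With each library scaled to the same sum, these counts were 26, 19 and 15, all higher, against 33.5%, 18.1% and 28% of all genes called. The share of all calls that were higher went from 45.9%, 44.8% and 48.7% to 94.4%, 92.4% and 93.4% with that scaling, and the *Acsl1* call was lost (-0.32, adjusted p-value 0.0735). The fasted count fell to 1 without control fasted replicate 1 or LKO fasted replicate 2 and to 3 without either of the other fasted replicates. With sucrose, the calls of *Acot2* and *Acads* were both lost without any 1 of the 4 sucrose mice. With each library left out in turn, their differences ran from 1.49 to 1.76 in *Acot2* and from 0.33 to 0.43 in *Acads*. The fructose count was 0 without LKO fructose replicate 1 and 1 without control fructose replicate 1 or LKO fructose replicate 2, and the *Acsl1* call was lost in each of these 3 fits.

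**Figure D4:**
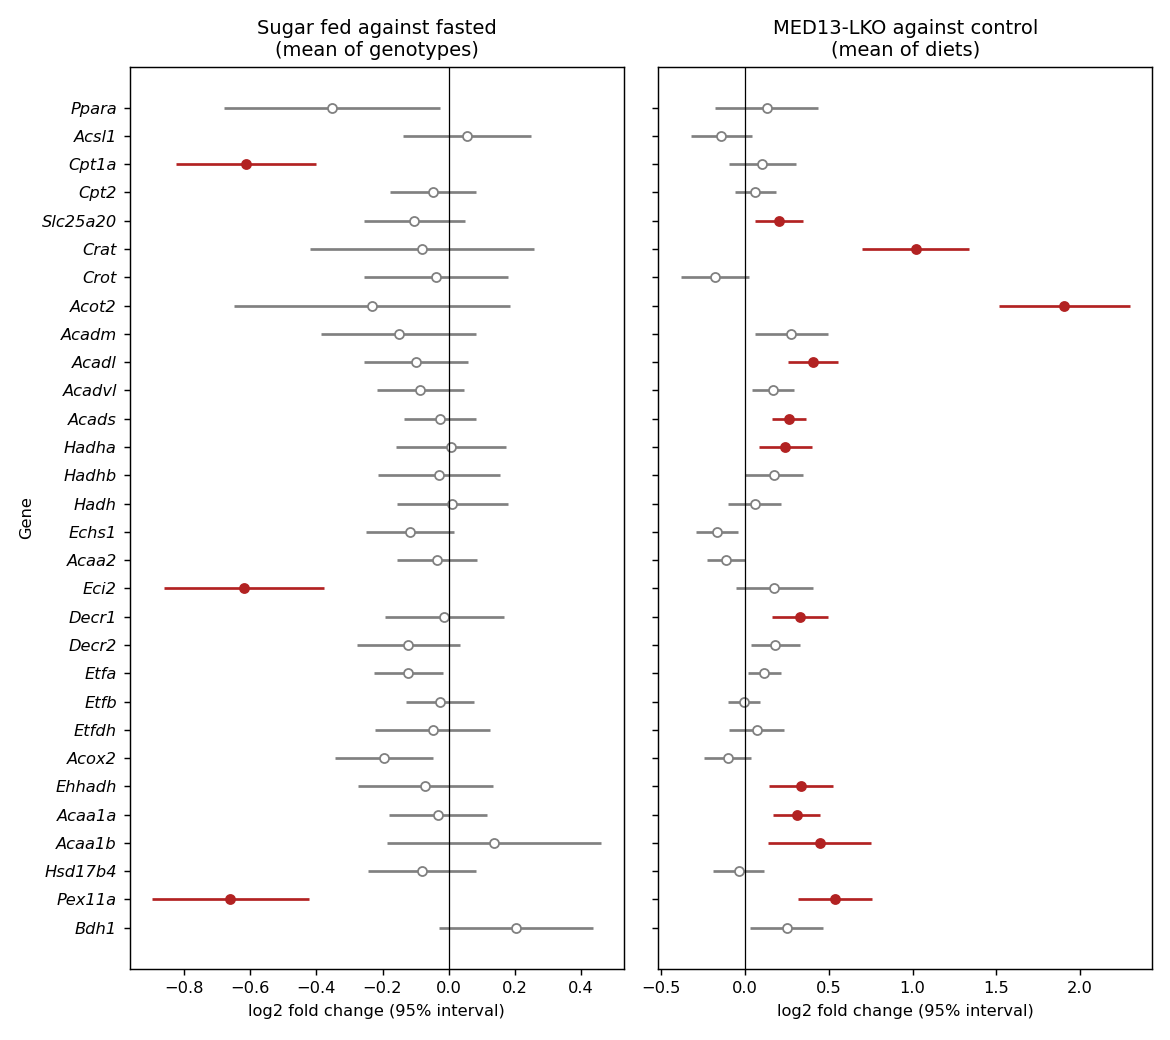
For each of the 30 tested genes the left panel shows the log2 difference of refed against fasted livers averaged over the genotypes, and the right panel that of LKO-labelled libraries against controls averaged over the diets, with bars for the 95% interval and filled red points for genes called in limma. On the left, 3 genes are called and all are lower, and on the right 11 are called and all are higher.

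The third comparison asked whether the response to refeeding differed between the genotypes. In limma, 0 of the 30 genes were called, against 0.0404% of all genes (5 of 12366), and *Acsl1* (-0.68) and *Pex11a* (-0.64) had unadjusted p-values under 0.05, with adjusted p-values of 0.265 and 0.367. Of all genes, 9.49% had an unadjusted p-value under 0.05. The differences were negative in 26 of the 30, with a median of -0.12 against 0.00 over all genes, and a negative value means a response that was lower in LKO-labelled libraries. This median lay between -0.19 and -0.04 with each library left out in turn, and it was -0.04 without control fasted replicate 1 or control sucrose replicate 2. For *Cpt1a* the difference was -0.12 (95% interval -0.54 to 0.31). For *Pex11a* the response to sucrose was -0.42 in controls and -1.02 in LKO-labelled libraries, and that to fructose was -0.25 and -0.94. For *Ppara* the responses were -0.06 and -0.54 on sucrose, and -0.27 and -0.54 on fructose.

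Each sugar was also taken alone, a choice made after the values of *Acsl1* had been seen. For sucrose, 0 of the 30 genes were called in limma against 0.146% of all genes, with 1 at an unadjusted p-value under 0.05 (*Pex11a*, against 8.53% of all genes). For fructose, 0 were called in limma against 0.0243% of all genes, with 4 at an unadjusted p-value under 0.05 (*Acads*, *Acsl1*, *Pex11a* and *Slc25a20*), against 9.46% of all genes. The fructose differences were negative in 28 of the 30, with a median of -0.22 against 0.00 over all genes. Leaving out each library in turn, that median ran from -0.31 to -0.11, and it was nearest 0 without LKO fructose replicate 2 (-0.11) or control fasted replicate 1 (-0.13).

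*Acsl1* (chr8:46471037-46536051), the main hepatic long-chain acyl-CoA synthetase, was singled out because its fructose values moved in opposite directions without overlap in either genotype. In controls it had 13926 and 16534 fasted, 16469 and 20003.7 on sucrose, and 25144 and 19114 on fructose. LKO-labelled libraries held 18662 and 19007 fasted, 17895 and 16163 on sucrose, and 14160.4 and 13869 on fructose. Both control fructose mice were above both fasted controls (log2 difference 0.53 ± 0.14), and both LKO-labelled fructose mice were below their fasted counterparts (-0.43 ± 0.14). Neither response was called in limma, with adjusted p-values of 0.0599 and 0.105, and the difference between them, -0.96 ± 0.20, had an adjusted p-value of 0.216. It was called without control fructose replicate 2 (-1.16, adjusted p-value 0.0388).

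The 2 mice of a group differed in a shared direction across these genes. In replicate 2 compared with replicate 1, 29 of the 30 genes were higher in fasted controls, 29 in control sucrose and 25 in control fructose. Among LKO-labelled mice, 21 were higher in the fasted group, 6 on sucrose and 2 on fructose. Over all genes tested the share higher in replicate 2 was between 49.4% and 50.9% in every group. The median difference of the 30 genes ran from 0.27 (log2) in control sucrose to -0.16 in LKO-labelled fructose mice. The 30 genes thus moved together within a mouse, and a count of genes moving one way in a group rests on 2 animals. In each refed group *Pck1*, the gluconeogenic gene that falls on feeding, was higher in the mouse where most of the 30 genes were higher. Replicates 1 and 2 had 4235 and 9921 in control sucrose and 7416 and 48079 in control fructose. LKO-labelled mice had 11275 and 7814 on sucrose, and 15349 and 8275 on fructose. The lipogenic gene *Fasn* was lower in that mouse each time, for example 35838 and 19511 in control sucrose. In fasted LKO-labelled mice *Pck1* was 66545 and 66143. Why these values moved with the 30 genes was not tested.

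**Figure D5:**
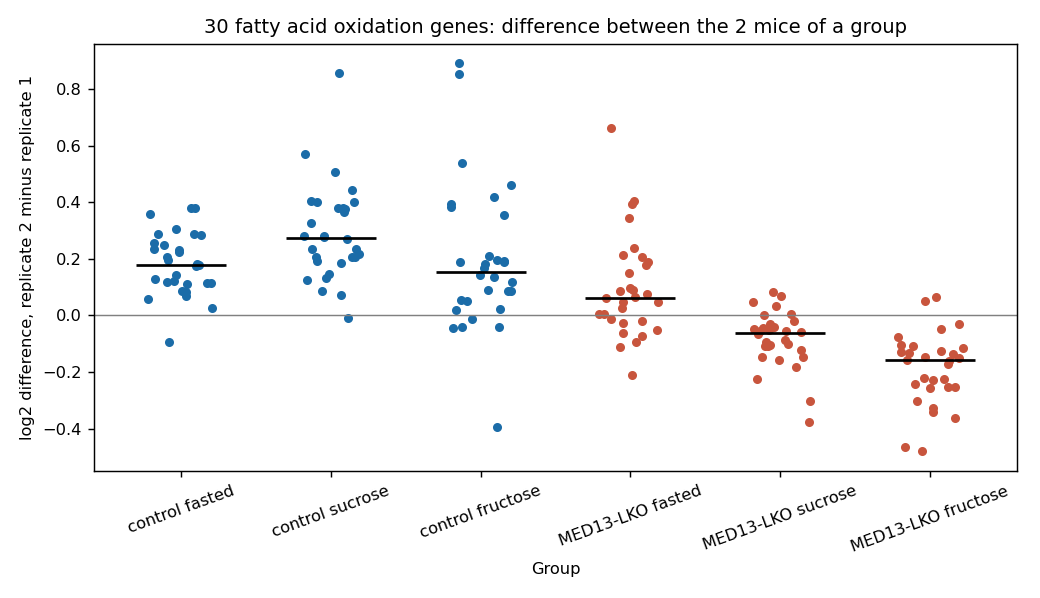
Each dot is 1 of the 30 genes, placed by its log2 difference between the 2 mice of a group (replicate 2 minus replicate 1, vertical axis), for the 6 groups along the horizontal axis, with a line at the median. The dots lie mostly above 0 in the control groups and mostly below 0 in the LKO-labelled refed groups.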

How the data were processed

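Liver RNA-seq of 12 mice was analysed, 2 in each of 6 groups taken from the sample titles. Per the labels and the submitters' processing notes, the authors trimmed reads with Trim Galore 0.6.5, estimated transcript counts with kallisto 0.46.0 and normalized with DESeq2 1.24.0 (mm10). The authors deposited a signal table of normalized counts, with 16346 Ensembl genes. They are not raw counts, so no count model was fitted, and the read total of each library was not computed here. The sums of normalized counts given above do not measure depth, because the values were already divided by normalization factors.

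Values were put on the scale log2(normalized count + 1), and 12366 genes whose mean reached 10 were kept. A linear model of the 6 groups over all 12 libraries was fitted in limma 3.58.1 (R 4.3.3) with empirical Bayes moderation and a mean trend, and p-values were adjusted by Benjamini-Hochberg over all genes tested. The fit was tested on simulated data with independent noise in each gene. That test does not cover genes that move together within a mouse. With 2 mice per group, p-values measure the spread between these mice. Symbols and positions came from GENCODE on GRCm38, where 16212 identifiers matched. Figures used Python 3.11.15 and matplotlib 3.10.9.

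The members and lists were chosen with earlier results of these data known. Values in every library are given for the 6 called members with the largest difference in each direction of the feeding, genotype and feeding-response comparisons, and always for *Ppara*, *Cpt1a*, *Acaa1a*, *Acaa1b*, *Pex11a*, *Bdh1* and *Ehhadh*. *Acsl1* was added after its values were seen. Of 48 other genes of the pathway and 13 regulators, up to 3 in each direction are named. Alternatives were pseudocounts of 0.1 and 10, no filter, scaling to equal 75th percentiles or equal sums, each library left out, the compared groups alone and a replicate block. The replicate numbers come from the titles, and deviations of same-numbered mice correlated between -0.142 and 0.078 over the 15 pairs of groups, with 0 above 0.1, so the numbers were not treated as pairs.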

Additional observations from a re-analysis of the deposited data

Results flagged for a closer look

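*Acsl1* was the 1 gene of the list for which both mice of a sugar group lay above both fasted mice in one genotype and below both in the other. Means alone moved in opposite directions for more of the genes with fructose, since 15 of 30 differences were positive in controls and 29 of 30 were negative in LKO-labelled libraries. Its response to fructose was -0.9573 (log2, LKO-labelled libraries minus controls), because both control mice on fructose were above the fasted controls and both LKO-labelled mice were below their fasted counterparts. The difference was tested in limma and had a p-value of 0.000757 and an adjusted p-value of 0.216, so it was not called. The adjusted p-value lay between 0.0388 and 0.427 over the alternatives tried, the lowest without control fructose replicate 2. In that mouse 25 of the 30 genes were higher than in its group mate, but *Acsl1* itself was lower.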

How the results depend on the processing

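Scaling changed the results most. With equal sums per library, genes called between the genotypes were 26 fasted, 19 with sucrose, 15 with fructose and 28 averaged over diets, against 33.5%, 18.1%, 28% and 60.8% of all genes, and 1 was called for fructose against fasted in controls. Averaged over the diets, *Etfb* (0.308), *Acox2* (0.211), *Hsd17b4* (0.277), *Echs1* (0.146) and *Acaa2* (0.203) changed sign to higher. The cause was not tested. Of all calls on feeding, 49.3% were higher on the deposited scale, 56.9% with equal 75th percentiles and 76.8% with equal sums. Splits of all calls for single sugars went from 56.6%, 49.9%, 39.1% and 45.1% higher (sucrose and fructose in controls, then in LKO-labelled libraries) to 79.1%, 80.4%, 59.2% and 70.5% with equal sums, and for sucrose in LKO-labelled libraries to 50.7% with equal 75th percentiles. For sucrose in LKO-labelled libraries, 1 gene was called in place of 2 with a pseudocount of 0.1, no filter, equal 75th percentiles or equal sums. With the compared groups alone, which leaves fewer samples, the genotype comparison called 1 with sucrose and 0 with fructose. Leaving out each library gave 0 to 1 for sucrose and 0 to 2 for fructose in controls, 0 to 2 and 0 to 5 in LKO-labelled libraries, and 3 to 5 averaged over genotypes. Between genotypes it gave 1 to 8 fasted, 0 to 3 with sucrose, 0 to 3 with fructose and 7 to 17 averaged over diets, and 0 to 1 for the fructose response. For sucrose in LKO-labelled libraries the count was 1 without either control fasted replicate or LKO fasted replicate 1, and 0 without LKO fasted replicate 2 or either LKO sucrose replicate. Without either control sucrose replicate it was 2, but *Cpt1a* was not called.

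With a replicate block, sucrose against fasted in controls called 2 genes, *Cpt1a* and *Eci2*, in place of 1, and of 107 results 105 kept their side of the threshold. The numbers do not pair the mice. Calls lost with the block were *Cpt1a* for sucrose in LKO-labelled libraries (adjusted p-value 0.0699, limma) and *Acaa1a* between fasted genotypes (0.0571). Precision in single diets is limited by 2 mice per group.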

Other observations

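Other genes of the pathway, outside the 31, were counted in the same fits. Of 47 tested, 9 were higher and 13 lower in the LKO-labelled libraries averaged over the diets (limma, adjusted p-value under 0.05; 25.3% of all genes were called, 12.1% higher and 13.2% lower), with a median of -0.09 against 0.17 for the 30 genes of the report. The largest increases were *Acot1*, a cytosolic acyl-CoA thioesterase (log2 difference 2.07 ± 0.19, SE), *Abcd2*, a peroxisomal importer of very long acyl-CoA (1.48 ± 0.20), and *Cpt1b*, the muscle form of carnitine palmitoyltransferase (1.34 ± 0.41). *Acot1* lay between 155.1 and 404.9 in controls and between 803.6 and 2477 in LKO-labelled libraries, without overlap. Of its 31-base words 22.8% also occur in other genes, and whether its difference is separate from that of *Acot2* was not tested. *Cpt1b* was low, between 6.9 and 139.7, and 79.7% of the 31-base words of its transcript also occur in other genes. The largest decreases were *Nudt7*, a peroxisomal CoA diphosphatase (-0.87 ± 0.25), *Hsd17b10*, a mitochondrial dehydrogenase (-0.82 ± 0.06), and *Slc27a5*, the bile acyl-CoA synthetase (-0.78 ± 0.04). *Slc27a5* lay between 11343 and 14181 in LKO-labelled libraries and between 19909 and 24462 in controls.

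On refeeding, 6 of these 47 genes were higher and 11 lower, against 10.7% and 11% of all genes. The lower ones were led by *Pdk4*, which inhibits pyruvate dehydrogenase (-1.33 ± 0.23), *Slc22a5*, the plasma membrane carnitine transporter (-0.76 ± 0.13), and *Acot1* (-0.69 ± 0.21). The higher ones were led by *Nudt7* (1.04 ± 0.27), *Acacb*, which makes the malonyl-CoA that inhibits CPT1 (1.04 ± 0.22), and *Slc16a1*, a monocarboxylate transporter (0.62 ± 0.14). *Pdk4* lay between 199.4 and 418.7 in fasted and between 61.6 and 185.4 in refed libraries, without overlap. In the comparison of feeding responses 0 of the 47 were called in limma.

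Of 13 regulators, 1 was higher and 6 were lower after refeeding, against 10.7% and 11% of all genes. The lower ones were led by *Lpin1* (-1.56 ± 0.18), a coactivator and phosphatidate phosphatase, *Ppargc1a* (-1.10 ± 0.14), a coactivator of PPARα, and *Ppargc1b* (-0.91 ± 0.24). The 1 higher gene was *Fgf21*, a hormone induced through PPARα and by carbohydrate (1.60 ± 0.41 averaged over the genotypes). Its normalized counts were 1.13 and 4.82 in fasted controls, 25.1 and 73.5 on sucrose, and 16.6 and 25.8 on fructose. LKO-labelled libraries held 50.7 and 34.4 fasted, 90.2 and 30.3 on sucrose, and 33.5 and 39.8 on fructose. The average rests on the low fasted controls, since the sucrose and fructose responses of *Fgf21* were 3.65 (called) and 2.63 (adjusted p-value 0.0518, limma) in controls and 0.32 and -0.19 (not called) in LKO-labelled libraries. The difference between the genotypes' feeding responses, -3.07, had an adjusted p-value of 0.281 in limma. Between the genotypes 4 were higher, against 12.1% of all genes, led by *Fgf21* (1.56 ± 0.39), *Ppargc1a* (0.47 ± 0.13) and *Esrra* (0.38 ± 0.07), and 4 lower, against 13.2% of all genes, led by *Lpin1* (-0.87 ± 0.17), *Pparg* (-0.61 ± 0.13) and *Rxra*, the partner of PPARα on DNA (-0.33 ± 0.06). By diet the genotype difference of *Fgf21* was 3.60 fasted (called), 0.28 on sucrose and 0.79 on fructose (not called).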
